A study of Mus musculus with 8 samples.

Results

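Oligodendrocyte precursor cells (OPCs) are the glial cells of the adult brain from which new myelinating oligodendrocytes arise. They are known by Pdgfra, the receptor through which platelet-derived growth factor keeps them dividing, and by Cspg4, the NG2 proteoglycan, and they tile both gray and white matter. On the way to an oligodendrocyte an OPC leaves the cell cycle, passes a short-lived stage marked by Gpr17 and then makes myelin proteins such as Mbp and Mog. Notch signalling, through its target genes Hes1 and Hes5, is known to hold OPCs back from that step.

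OPCs were taken from 8 single-cell libraries of the brains of 24-month-old mice. A cell counted as an OPC when Pdgfra and Cspg4 together had at least 3 unique molecular identifiers (UMIs, each one captured RNA molecule), Ptprz1 had at least 1 UMI, and the authors had not listed the cell as an oligodendrocyte. Ptprz1 encodes a receptor-type phosphatase of OPCs and astrocytes. This rule found 93 OPCs among 29631 cells, or 0.314%, and 15382 listed oligodendrocytes served as the mature cells for comparison. The genes of the rule chose the cells, and the oligodendrocytes had been clustered by their genes. Their levels in the 2 cell types are therefore given as a description without a test.

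Wild-type mice carried the strain label C57BL/6. The other mice were labelled Rag1 KO with the strain label NOD.129S7(B6)-Rag-1tm1Mom/J, and are called Rag1-/- here. The study's methods instead place both genotypes on a C57BL/6J background. Loss of Rag1, a gene needed to rearrange antigen receptors, leaves mice without mature T and B cells. Gray matter was prefrontal cortex, and white matter was optic tract, medial lemniscus and corpus callosum. Wild-type mice gave 2 gray and 2 white matter libraries, and Rag1-/- mice gave 1 gray and 3 white matter libraries. By the study's list of mice, tissue of several mice was pooled in each library except Rag1-/- white matter libraries 2 and 3. The same list gives the same mice for gray and white matter library 1 of the wild type, for its libraries 2, and for gray and white matter library 1 of the Rag1-/- mice. Rag1-/- white matter libraries 2 and 3 were a second batch. All tissue was dissociated with actinomycin D, a blocker of transcription, and live cells were sorted by exclusion of SYTOX Blue. The genotype goes together with the experiment, the strain label and the version of the counting software, and these cannot be told apart.

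The libraries held 4645054 to 57899352 UMIs. At least 2 of the T cell genes Cd3e, Cd3d and Cd8a were found in 403 of 8726 wild-type cells and in 3 of 20905 Rag1-/- cells. Rag1 itself had 27 UMIs in wild-type cells and 301 in Rag1-/- cells, and none in the OPCs. The reads come from the 3′ end of transcripts and may lie outside the changed part of the gene, so that Rag1 checks nothing here. Of the cell barcodes, 92 occurred in more than 1 library, 2 of them among the OPCs.

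OPCs were rare in every library. In wild-type gray matter there were 0 OPCs among 584 cells of library 1, which allows a share of up to 0.514% (3 counts; exact binomial upper bound 0.630%), and 2 among 1845 cells of library 2. In wild-type white matter there were 2 among 934 cells and 10 among 5363 cells. The Rag1-/- gray matter library held 23 among 3807 cells. Rag1-/- white matter libraries 1, 2 and 3 held 28 among 7631, 8 among 2944 and 20 among 6523 cells. The highest share, 0.604% (95% exact binomial interval 0.383 to 0.905), was that of Rag1-/- gray matter, and the lowest shares were those of wild-type gray matter, at 0 and 0.108% (0.0131 to 0.391). The white matter libraries lay between, from 0.187% (0.0895 to 0.343) to 0.367% (0.244 to 0.530). These intervals cover counting error only.

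White matter had 0.269% ± 0.0722 OPCs (SD, n = 5 libraries) and gray matter 0.238% ± 0.322 (SD, n = 3), which did not differ beyond the spread (exact two-sided permutation test, p = 0.929, smallest possible p 0.0357). Of the 2 OPCs of wild-type gray matter, 1 was a mixed barcode (described below), and without such barcodes that library's share was 0.0542% and white minus gray matter 0.01997 in place of 0.0317 percentage points. Within pools, white minus gray matter was 0.214 and 0.0781 percentage points in the wild type and -0.237 in Rag1-/- mice, so that the sign differed between pools. Within white matter, the share was 0.315% ± 0.0482 (SD, n = 3) in Rag1-/- mice and 0.200% ± 0.0196 (SD, n = 2) in the wild type. Leaving out the mixed barcodes, the difference was 0.0661 in place of 0.115 percentage points. The groups did not overlap, but 3 libraries against 2 cannot give a p below 0.2, which was the value found (exact two-sided permutation test). Per 1000 oligodendrocytes, the OPCs numbered 21.8 in Rag1-/- gray matter, 5.31 to 9.17 in Rag1-/- white matter, 2.44 and 4.05 in wild-type white matter and 0 and 1.79 in wild-type gray matter. The authors' limits on UMIs differed between experiments. Within cells under 20000 UMIs of all libraries, white minus gray matter was 0.0487 percentage points. Rag1-/- minus wild-type white matter was then 0.115. How many OPCs survive dissociation was not tested.

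**Figure D1:**
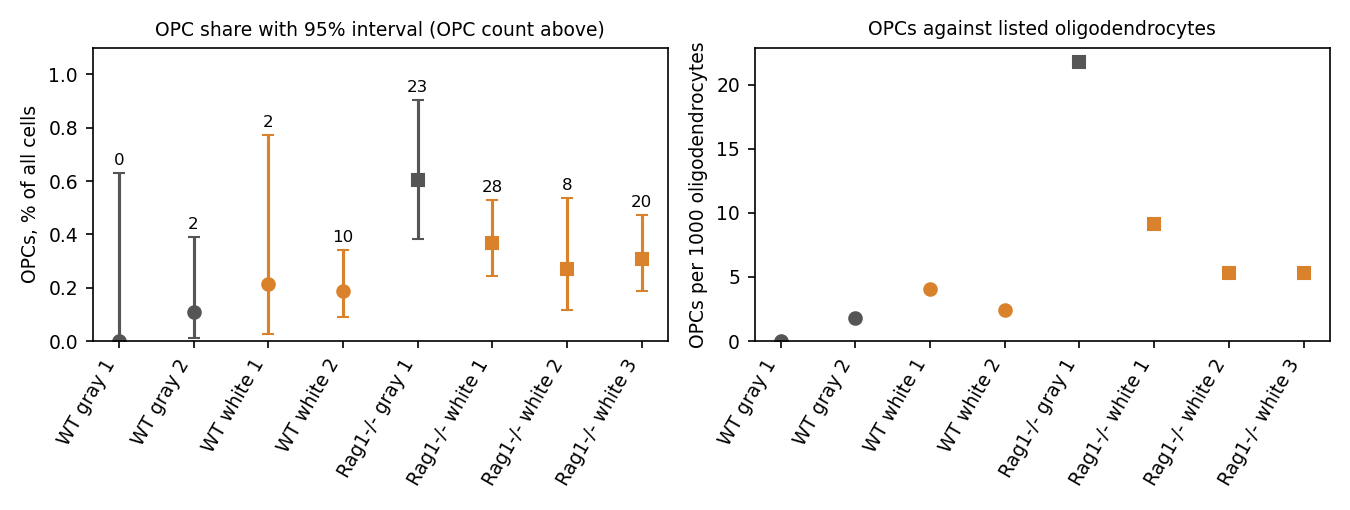
OPCs by library as a share of all cells in percent (left, with 95% exact binomial intervals and the number of OPCs above each point) and per 1000 oligodendrocytes (right). Gray points are gray matter, orange points white matter, circles wild type and squares Rag1-/-; Rag1-/- gray matter stands highest in both panels, at 0.604% and 21.8 per 1000.

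Markers that the rule did not use were those of the named cell type. Of the 93 OPCs, 95.7% had UMIs of Olig1, 96.8% of Olig2 and 91.4% of Sox10, the transcription factors of the whole oligodendrocyte lineage. In oligodendrocytes these shares were 99.0%, 70.3% and 95.6%. Vcan, the matrix proteoglycan versican, was found in 97.8% of OPCs and 0.462% of oligodendrocytes. Cacng4, an auxiliary subunit of AMPA receptors, was found in 94.6% and 0.195%, the secreted synaptic organizer C1ql1 in 94.6% and 0.117%, and the sialidase Neu4 in 86.0% and 0.0585%. The markers Matn4, in 95.7% and 37.7%, and Pcdh15, in 88.2% and 11.6%, were less specific. The median depth was 8405 UMIs and 3670 genes per OPC (1144 to 29323 UMIs) and 10043 UMIs per oligodendrocyte. The endothelial genes Cldn5 and Ly6c1 had no UMI in any OPC, and a count of 0 allows a share of up to 3.23% of OPCs with such a UMI.

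The rule had few borderline cells. Just inside it were 3 OPCs with exactly 3 UMIs of Pdgfra and Cspg4, and just outside it were 4 cells with 2 UMIs and Ptprz1. A further 59 cells reached 3 UMIs but had no Ptprz1, and 53 of these had no Pdgfra either, so that their UMIs were those of Cspg4, which pericytes also express. None of the listed oligodendrocytes met the gene rule. Pdgfra was present in all 93 OPCs, 11 had no Cspg4 UMI, and 2 had a single Ptprz1 UMI.

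Some OPC barcodes also carried RNA of other cells or lacked the lineage factors. At least 20 UMIs of the microglial complement genes C1qa, C1qb and C1qc were found in 7 OPCs, at least 20 UMIs of the myelin gene Mal in 5, and no UMI of Olig1, Olig2 or Sox10 in 3. Of the last, 2 were shallow, with 1144 and 1678 UMIs, and had 2 and 1 UMIs of the C1q genes and none of Mal. Together these are 14 barcodes, called mixed here, by limits chosen after the data were seen, and the other 79 OPCs were also analysed alone, as unmixed OPCs. No doublet caller was run. The extreme was a barcode of wild-type gray matter library 2 with 29323 UMIs, 500 of them from the C1q genes and 43 from the fibroblast gene Dcn. In wild-type white matter library 2, 1 barcode of 25511 UMIs carried 55 of Mal. The limits used Mal and the C1q genes, so lower values of these genes in unmixed OPCs are no result.

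Summed over the 12 genes of the microglia list, OPCs had 147 CPM (UMIs per 1000000 UMIs summed over the OPCs of a library) in wild-type white matter library 2, 3024 in Rag1-/- gray matter and 4356, 137 and 6556 in Rag1-/- white matter libraries 1 to 3. In the unmixed OPCs the same sums were 131, 671, 430, 127 and 310, and in oligodendrocytes they were 102 to 406. The 30 myelin genes came to 18309, 3254, 8796, 3573 and 9923 CPM in OPCs in the same order and to 3212 to 4899 in unmixed OPCs, against 96501 to 104832 in oligodendrocytes. RNA of red blood cells was high in 1 library: the 5 blood genes reached 1013 CPM in OPCs and 613 in oligodendrocytes of Rag1-/- gray matter, and at most 87.3 in either cell type of the other 4 libraries. Other cell types left little, with sums of at most 19.7 for T and NK cells, 68.5 for endothelium, 9.79 for pericytes and 49.6 for fibroblasts. Astrocyte and neuron lists were higher in OPCs than in oligodendrocytes, with sums of 1283 to 2163 against 138 to 321 and of 850 to 1000 against 95.3 to 177. Of the astrocyte markers, Gja1 was in 2 OPCs and Aqp4 in 17, with at most 4 and 3 UMIs. These are 2.15% and 18.3% of OPCs, against 2.24% and 1.85% of oligodendrocytes.

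**Figure D2:**
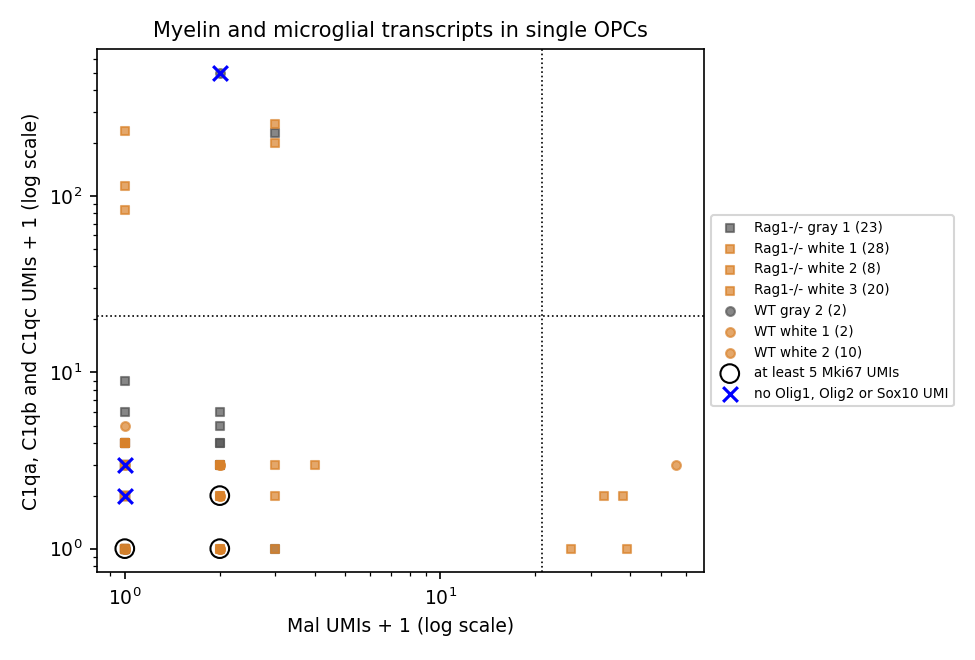
UMIs of Mal against summed UMIs of C1qa, C1qb and C1qc in each of the 93 OPCs, on log axes, with dotted lines at the limit of 20 UMIs for mixed barcodes on each axis. Most OPCs lie below both lines, many of them on top of each other; circles mark the 3 OPCs with at least 5 UMIs of Mki67 and crosses the 3 without Olig1, Olig2 and Sox10.

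Next, UMIs were summed over the OPCs of each library and expressed as CPM, and likewise for the oligodendrocytes of the same library. The 4 libraries with at least 10 OPCs were used, namely wild-type white matter library 2, Rag1-/- gray matter library 1 and Rag1-/- white matter libraries 1 and 3. Of 5008 genes with at least 50 CPM in either cell type, 468 (9.35%) were at least 4-fold higher in OPCs in all 4 libraries and 124 (2.48%) at least 4-fold higher in oligodendrocytes, with 10 CPM added to both. Within cells under 20000 UMIs, which leaves out 1 OPC, of the wild type, from these libraries, the latter count was 188. The median log2 ratio of OPC to oligodendrocyte over all of them was 0.28.

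Of the genes furthest on the OPC side outside the rule, several encode matrix proteins. Cspg5, the proteoglycan neuroglycan C, had 3591 ± 681 CPM in OPCs (SD, n = 4 libraries) and 10.5 in oligodendrocytes, a log2 ratio of 7.46 ± 0.28. Vcan had 1370 ± 356 and 0.669 CPM, and the matrix protein tenascin-R (Tnr) 1053 ± 301 and 0.392. Marcks, a substrate of protein kinase C at the membrane, followed with 2362 ± 268 and 7.93 CPM. Cyclin D1 (Ccnd1), which drives entry into the cell cycle, had 1514 ± 367 CPM in OPCs and 3.68 in oligodendrocytes although few OPCs were dividing (given further on). The tetraspan-family gene Lhfpl3 varied little, at 1128 to 1394 CPM in every library and 1256 ± 112 on average, against 1.98 in oligodendrocytes. Fabp7, a fatty acid-binding protein of glial progenitors, had 785 ± 92.9 and 1.28 CPM.

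Pdgfra, which was part of the rule, had 1202 CPM in wild-type white matter library 2, 2334 in Rag1-/- gray matter and 1381, 1464 and 967 in Rag1-/- white matter libraries 1, 2 and 3. It lies on chromosome 5 at 75152292 to 75198215 of GRCm38, on the plus strand. Cspg4 (chromosome 9, 56865033 to 56899870, plus strand) had 826, 470, 301, 844 and 483 CPM in the same order, and Ptprz1 (chromosome 6, 22875502 to 23052916, plus strand) 4369, 6468, 4410, 4926 and 3839. In oligodendrocytes none of these exceeded 11.3 CPM.

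**Figure D3:**
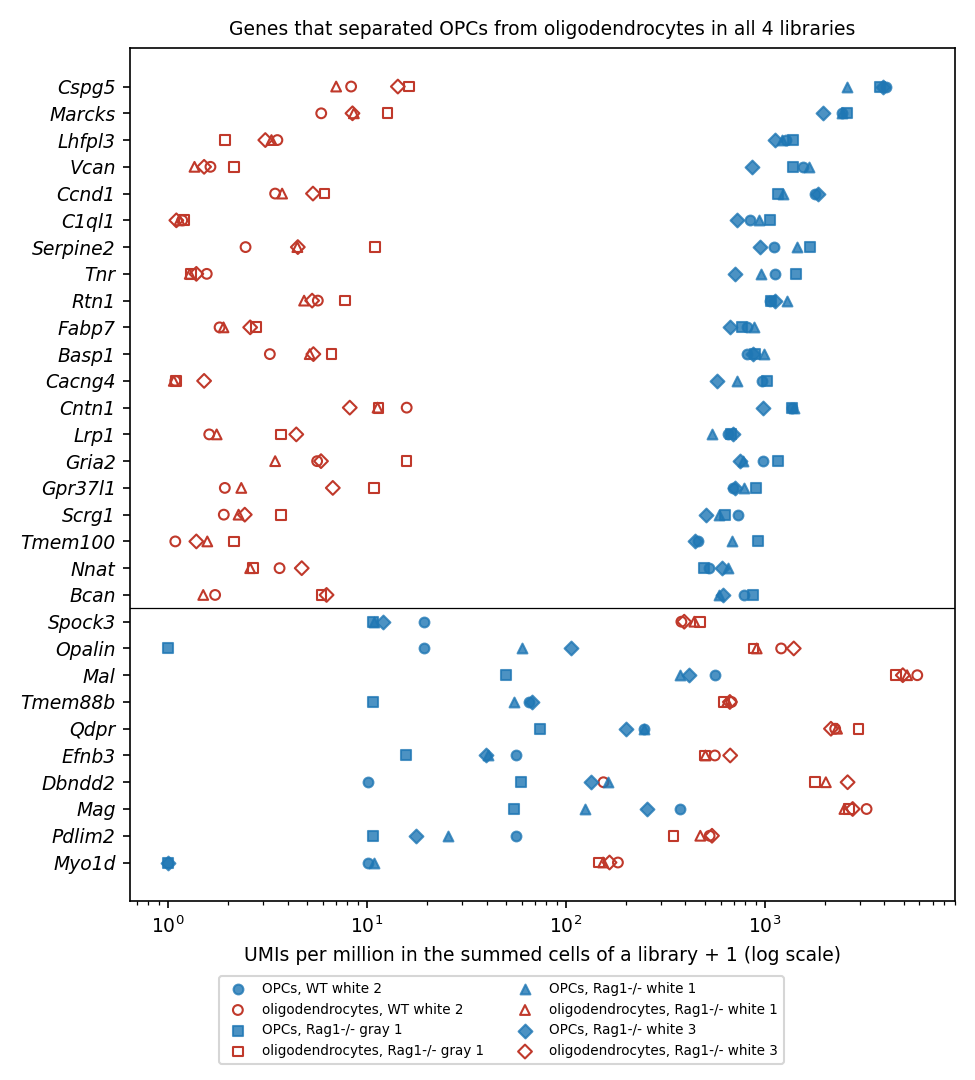
Levels of the 20 genes furthest on the OPC side and the 10 furthest on the oligodendrocyte side, in CPM plus 1 on a log axis, with a filled blue point per library for OPCs and an open red point for oligodendrocytes (4 libraries). For Cspg5, at 3591 against 10.5 CPM on average, and the other OPC genes the points of the cell types lie far apart, whereas Mal and Opalin spread widely among the OPC sums.

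On the oligodendrocyte side were Spock3, with 422 ± 43.2 CPM in oligodendrocytes and 12.3 ± 4.10 in OPCs, the myelin proteolipid Mal with 5137 ± 541 and 350 ± 216, and the adhesion molecule Mag, which faces the axon, with 2799 ± 319 and 202 ± 143. In OPCs Mal had 560 CPM in wild-type white matter library 2, 48.9 in Rag1-/- gray matter, and 375, 0 and 417 in Rag1-/- white matter libraries 1 to 3. In unmixed OPCs, chosen in part by Mal, it had 71.7, 42.3, 33.0, 0 and 79.5 CPM in the same order. Mag had 23.9, 52.8, 26.4, 88.7 and 127 CPM in them. Most OPCs held no Mal, with UMIs in 35.5% of them, against 99.9% of oligodendrocytes.

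Across the gene lists, the 35 OPC identity genes had a median log2 ratio of 4.45, and 31 of them were over 2-fold higher in OPCs in all 4 libraries, where 15.6% of all genes with at least 50 CPM were. Of the 30 myelin genes, 28 were over 2-fold higher in oligodendrocytes in all 4 libraries (8.17% of all genes), with a median of -3.83. Both lists were drawn up for these cell types, so their direction is no finding.

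The lists of neurotransmitter receptors describe how OPCs are equipped to sense neurons, from which they are known to receive synapses. Of 8 glutamate receptor genes at 50 CPM or more, 6 were over 2-fold higher in OPCs in all 4 libraries (15.6% of all genes). Their median log2 ratio was 4.47. Gria2, the subunit that makes AMPA receptors impermeable to calcium, had 917 ± 193 CPM in OPCs and 6.71 in oligodendrocytes, Gria3 had 313 ± 107 and 0.159, and the metabotropic receptor Grm5 had 232 ± 73.7 and 0.0983. Grm3 was the exception, with 9.49 ± 8.49 CPM in OPCs and 197 ± 47.0 in oligodendrocytes. Gabrb1, a subunit of GABA-A receptors, had 67.3 ± 28.1 and 1.21 CPM. Of 16 genes of the ion channel list, the non-coding Kcnq1ot1 among them, 10 were higher in OPCs and 1 in oligodendrocytes by the same measure (15.6% and 8.17% of all genes). Kcnip3, a partner of A-type potassium channels, had 405 ± 59.8 and 1.72 CPM, Kcnd2, such a channel, 155 ± 29.0 and 0.128, and Kcna1, a potassium channel best known from axons, had 81.8 ± 45.8 CPM in OPCs and 527 ± 75.3 in oligodendrocytes.

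Matrix genes showed the same lean, with 17 of 24 higher in OPCs and 3 in oligodendrocytes (15.6% and 8.17% of all genes). Their median log2 ratio was 3.64. Bcan, the proteoglycan brevican, had 717 ± 135 and 2.86 CPM, Sparcl1 (hevin) 1161 ± 336 and 18.9, and the heparan sulphate proteoglycan Sdc3 356 ± 64.8 and 0.427. Among the lineage transcription factors, 14 of 29 were higher in OPCs and 2 in oligodendrocytes (15.6% and 8.17% of all genes). Sox6, which holds back differentiation, had 384 ± 112 and 0.557 CPM. Olig1 had 2546 ± 211 and 763 CPM and Olig2 913 ± 88.0 and 146, whereas Sox10 was nearly level at 449 ± 14.9 and 381. The factors on the oligodendrocyte side were Myrf, the master regulator of myelin genes, with 41.8 ± 22.6 CPM in OPCs and 300.0 ± 50.6 in oligodendrocytes, and Nkx6-2, with 65.5 ± 38.9 and 628 ± 58.0.

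Of the growth factor receptors 2 of 11 were higher in each cell type, with a median of 0.25, and 15.6% and 8.17% of all genes were higher in OPCs and in oligodendrocytes. Ntrk2, the receptor of BDNF, had 446 ± 119 CPM in OPCs and 4.93 in oligodendrocytes, and Ntrk3, that of neurotrophin 3, had 132 ± 19.2 and 0.0982. The fibroblast growth factor receptor Fgfr2 had 18.1 ± 12.6 CPM in OPCs and 372 ± 60.9 in oligodendrocytes. Pdgfa, the ligand of Pdgfra, was higher in oligodendrocytes, with 288 ± 38.7 CPM against 76.8 ± 45.5. Its levels in OPCs were 138 CPM in the wild type, 29.4 in Rag1-/- gray matter and 61.1 to 78.9 in Rag1-/- white matter. In the Notch, BMP and WNT list, 7 of 16 genes were higher in OPCs and 2 in oligodendrocytes, with Notch1 at 166 ± 63.2 and 3.99 CPM and Id2, an inhibitor of bHLH factors, at 325 ± 142 and 2.59.

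**Figure D4:**
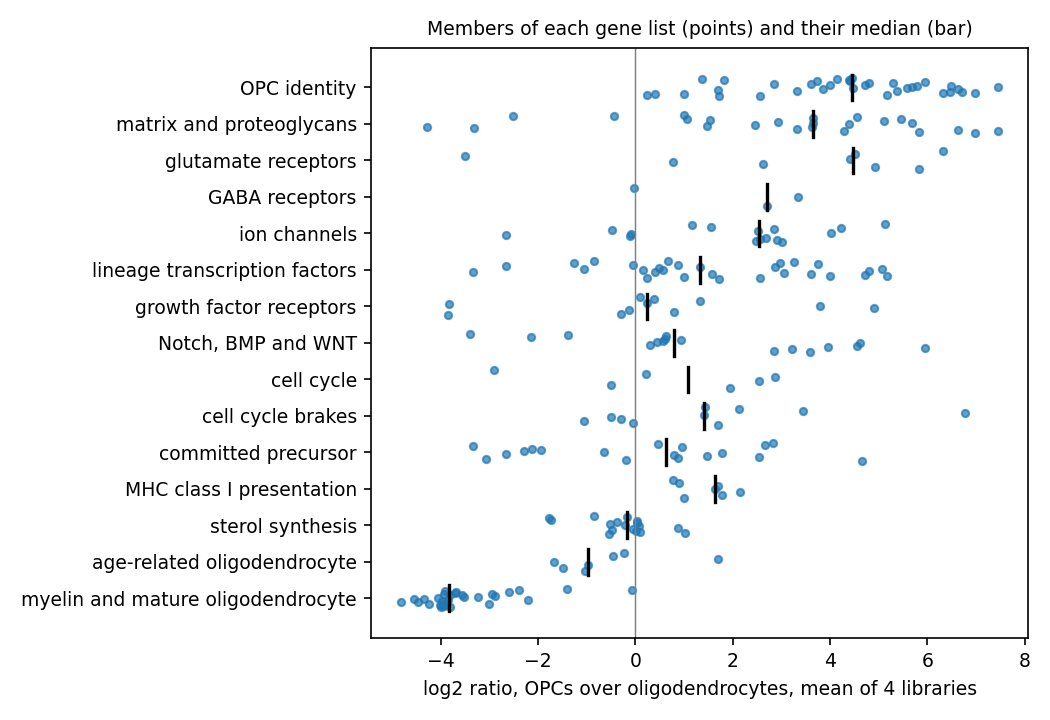
Mean log2 ratio of OPC to oligodendrocyte levels over 4 libraries (10 CPM added) for genes with at least 50 CPM in either cell type, 1 point per gene, by gene list, with a bar at each list's median. The glutamate receptor list has its bar at 4.47, close to the OPC identity list at 4.45, and the myelin list has its bar at -3.83.

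Genes of immune presentation were also compared. Of 7 MHC class I genes at 50 CPM or more, 4 were over 2-fold higher in OPCs in all 4 libraries (15.6% of all genes), with a median log2 ratio of 1.63. Microglia express these genes strongly, so the unmixed OPCs are given, in which 3 of 6 were (16.9% of all genes), H2-K1, B2m and the proteasome activator Psme1, with a median of 1.06. In them B2m, the shared light chain, had 299 CPM in wild-type white matter library 2, 122 in Rag1-/- gray matter and 139, 152 and 207 in Rag1-/- white matter libraries 1 to 3, against 123, 23.6, 57.7, 60.6 and 82.3 in oligodendrocytes. H2-K1, whose reads may be shared with near-identical family members, had 203, 106, 112, 139 and 95.4 CPM in unmixed OPCs and 69.9, 35, 42.9, 33.2 and 36.8 in oligodendrocytes. In every library shown both genes were higher in unmixed OPCs than in oligodendrocytes. Of the 28 type I interferon-stimulated genes in the tables, 2 reached 50 CPM in OPCs. Summed over all 28, the level was 717 CPM in the 9 unmixed OPCs of wild-type white matter library 2. It was 291 in unmixed OPCs of Rag1-/- gray matter and 253 to 262 in those of Rag1-/- white matter. Oligodendrocytes had 326, 210 and 257 to 267 CPM in the same order, so their sum was also highest in that wild-type library. Isg15, a ubiquitin-like effector of interferon, had no UMI in unmixed OPCs.

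Gpr17 and the cell cycle genes were then counted per cell. Gpr17, which marks committed precursors, had UMIs in 63 of 93 OPCs (67.7%) and in 0.650% of oligodendrocytes, with at most 21 UMIs in an OPC. Its level was 266 CPM in wild-type white matter library 2, 333 in Rag1-/- gray matter and 207, 633 and 245 in Rag1-/- white matter libraries 1 to 3. Bmp4, of the committed precursor list as well, was found in 7 OPCs and the premyelinating gene Enpp6 in 3. The rule asks for Pdgfra or Cspg4 and leaves out listed oligodendrocytes, so these counts cannot show how scarce later stages were. After thinning each OPC to 2000 UMIs, 70.0% of OPCs of wild-type white matter library 2 had Gpr17, 47.8% of Rag1-/- gray matter, and 18.5% and 40% of Rag1-/- white matter libraries 1 and 3. In Rag1-/- white matter library 2 it was 57.1% of 7 OPCs. The white matter values lay on both sides of the gray matter value. Thinning was 1 random draw at each depth, so part of a change between depths may come from the draw. Thinned to 1000 UMIs they all lay below it, at 20% in the wild type and 21.4%, 25% and 5% in Rag1-/- white matter libraries 1 to 3 against 34.8% in gray matter, and white minus gray matter, over the libraries with at least 10 OPCs, went from -4.99 to -19.3 percentage points (exact permutation test, p = 0.5). With 1 gray matter library no test could go below a p of 0.5. Without thinning the shares were 90.0, 82.6, 53.6 and 60%, and 75% in Rag1-/- white matter library 2.

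Dividing OPCs were few. Mki67, a protein of dividing nuclei, had UMIs in 3 of 93 OPCs, 1 each in wild-type white matter library 2 and Rag1-/- white matter libraries 1 and 3, with 12, 10 and 9 UMIs. These were all the Mki67 UMIs in OPCs. Cenpf, a kinetochore protein of late cell cycle, had 12, 25 and 18 UMIs in the same libraries, again from 1 OPC each. None of the 25 gray matter OPCs had Mki67, a count of 0 that allows up to 12% of OPCs with such a UMI. The share in white matter, 3 of 68, is below that limit. Mki67 was also found in 1.73% of oligodendrocytes. At least 2 genes of the broader cell cycle list, thinned as above, were found in 39.1% of Rag1-/- gray matter OPCs, in 29.6%, 0 of 7 and 25% of OPCs of Rag1-/- white matter libraries 1 to 3 and in 40% of those of wild-type white matter library 2. Without thinning the shares ran from 70.0 to 89.3%. Summed over its genes, the list had 360 to 1634 CPM in OPCs and 2608 to 3365 in oligodendrocytes. These shares therefore do not count dividing cells. Of the brakes on the cycle, Cdkn1a (p21) had 53.8 ± 52.3 CPM in OPCs and Cdkn2a (p16 and p19), known from senescent cells, 39.2 ± 23.7, against 5.55 and 2.83 in oligodendrocytes.

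White and gray matter OPCs were then compared in Rag1-/- mice, in which both tissues had a library with at least 10 OPCs. The fit held 4 libraries and left 1 residual degree of freedom, and the gray matter arm is a single library, so that tissue and library cannot be told apart. Of 6016 genes tested, 90 (1.5%) were called at an adjusted p of 0.05 (edgeR quasi-likelihood test, Benjamini-Hochberg), 55 higher (0.914%) and 35 lower (0.582%) in white matter. Without the mixed barcodes 26 of 4529 genes (0.574%) were called, 13 in each direction (0.287%), all of them among the 90. With DESeq2, 3 genes were called (0.0499%), namely Apod, Fth1 and Trf. None of the genes lower in white matter that are named below passed with DESeq2, and neither did Gap43 or C4b. When white matter library 2, with 8 OPCs, joined the fit, 28 genes were called (0.477%), and likewise 28 without the mixed barcodes (0.629%). With that library in and library 1 left out, 4 of 4872 genes were called, C4b, Gap43, Hba-a1 and Hbb-bs, and with library 3 left out none of 5145 was (143 had an unadjusted p under 0.05, edgeR). The number of calls thus depended on which white matter libraries were in the fit. Apart from globin genes, none of the genes lower in white matter that follow was called with library 2 in and library 1 or 3 out. Of libraries 1 and 3, library 1 shares its mice and its batch with the gray matter library, so its value is the one within a batch.

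The genes lower in white matter held 3 of the 19 tested genes of the Notch, BMP and WNT list, Hes1, Hes5 and Id3, where 0.582% of all genes were lower, and the list's median log2 fold change was -0.56, against 0.02 for all genes. Of the list, 1 of 16 was called lower without the mixed barcodes (0.287% of all genes) and 0 of 19 with DESeq2. Hes1 (chromosome 16, 30064384 to 30067796, plus strand) had 431 CPM in Rag1-/- gray matter OPCs and 78.9, 285 and 139 in Rag1-/- white matter libraries 1 to 3. It was detected in 15 of 23 gray matter OPCs and in 9 of 28, 2 of 8 and 7 of 20 white matter OPCs. On the log2 scale it changed by -1.92 ± 0.37 (SE; adjusted p = 7.19e-05, edgeR), and by -1.67 without the mixed barcodes (adjusted p = 0.0118). With library 2 in and library 1 or 3 out, Hes1 changed by -1.07 and -1.41 (adjusted p = 0.619 and 0.995, edgeR).

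Hes5 (chromosome 4, 154960923 to 154962371, plus strand) had 504 CPM in OPCs of Rag1-/- gray matter against 173, 149 and 195 in those of Rag1-/- white matter, and 193 in wild-type white matter library 2. All white matter values lay close together and below the gray matter value. The log2 fold change was -1.39 ± 0.34 (adjusted p = 0.00708, edgeR). Without the mixed barcodes it was -1.17 (adjusted p = 0.143), and -1.33 when library 2 then joined (adjusted p = 0.0300, edgeR). Id3, an inhibitor of bHLH factors induced by BMP, had 127 CPM in gray matter against 4.93, 12.4 and 22.2 in white matter, with UMIs in 14 gray matter OPCs and 1, 1 and 3 white matter OPCs. Its log2 fold change of -3.14 ± 0.75 (adjusted p = 0.00456, edgeR) was -3.07 and not called without the mixed barcodes (adjusted p = 0.128). In oligodendrocytes Id3 ran the other way, with 3.35 CPM in gray and 6.06 to 11.2 CPM in white matter of Rag1-/- mice. The difference between the cell types was itself called (log2 -4.68, adjusted p = 3.82e-05, edgeR). That call was lost with library 2 in and library 1 out (log2 -4.20, adjusted p = 0.0584) and kept with library 3 out (log2 -5.10, adjusted p = 0.0213, edgeR), and DESeq2 gave it no adjusted p. Nrarp, a feedback inhibitor and target of Notch that was chosen after its values were seen, had 137 CPM in gray and 14.8, 49.6 and 16.7 in white matter OPCs (log2 -3.00 ± 0.67, adjusted p = 0.00136, edgeR). Nrarp changed by -2.88 without the mixed barcodes (adjusted p = 0.0668), and by -2.20 and -2.32 with library 2 in and library 1 or 3 out (adjusted p = 0.592 and 0.995, edgeR).

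Hes1, Hes5, Id3 and Ednrb (given further on) are also genes of astrocytes. The summed level of the astrocyte list in OPCs was 2163 CPM in Rag1-/- gray matter, 1327, 1787 and 1283 in Rag1-/- white matter libraries 1 to 3 and 1771 in wild-type white matter library 2. Of 6 astrocyte markers tested none was called (edgeR), with a median log2 fold change of -1.001, or -0.85 without the mixed barcodes. Slc1a3, a glutamate transporter, had 431 CPM in gray and 197, 124 and 167 in white matter OPCs of Rag1-/- mice (log2 -1.17 ± 0.35, adjusted p = 0.0531, edgeR). Slc1a3 was called once library 2 joined the unmixed OPCs (log2 -1.53, adjusted p = 0.00899, edgeR). Gja1 and Aqp4, which define astrocytes, were in 2 and 17 of the 93 OPCs. All 5 markers of the list at 50 CPM or more, Slc1a2 and Aldoc among them, were over 2-fold higher in OPCs than in oligodendrocytes in all 4 libraries (15.6% of all genes). The part of astrocyte RNA in the tissue differences was not tested.

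The promoters of Hes5 and Nrarp are shown because both genes are textbook Notch targets that were lower in white matter OPCs. That of Hes1 is not shown, as the set of promoter sequences used held none for it. The RBPJ protein, through which Notch acts, binds the core GTGGGAA, and the sequences were searched for it on both strands (TTCCCAC on the other). Capitals mark the matches. Sequences are those of RefSeq on GRCm38.p6, from 250 bases before to 50 after the start of the gene, 5′ to 3′ on the plus strand, Hes5 at chr4:154960673-154960972 and Nrarp at chr2:25180508-25180807.
Hes5: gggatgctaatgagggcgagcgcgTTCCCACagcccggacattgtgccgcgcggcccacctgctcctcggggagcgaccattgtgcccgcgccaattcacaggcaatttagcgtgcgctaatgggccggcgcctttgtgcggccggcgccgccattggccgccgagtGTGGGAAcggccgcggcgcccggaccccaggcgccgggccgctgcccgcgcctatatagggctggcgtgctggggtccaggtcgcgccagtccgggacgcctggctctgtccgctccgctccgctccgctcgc
Nrarp: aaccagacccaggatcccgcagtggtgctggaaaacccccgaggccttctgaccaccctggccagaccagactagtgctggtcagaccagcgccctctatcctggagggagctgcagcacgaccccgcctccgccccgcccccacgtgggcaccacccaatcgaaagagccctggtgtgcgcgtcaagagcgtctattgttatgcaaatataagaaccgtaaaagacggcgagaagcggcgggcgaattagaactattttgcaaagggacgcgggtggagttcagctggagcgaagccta
Hes5 holds 2 matches, which begin at -226 and -83 from the start, 1 on each strand, and Nrarp holds none in this window. Of 32851 promoter windows of the same length, 2097 (6.38%) hold the motif on either strand. A match is a description of the letters and not evidence of binding.

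Adm and Vegfa, both known to be induced by low oxygen, were also lower in white matter OPCs. Adm, the vasodilator adrenomedullin (chromosome 7, 110627661 to 110629820, plus strand), had 372 CPM in Rag1-/- gray matter OPCs, 39.5, 137 and 33.3 in white matter, and 0 in wild-type white matter library 2. It was found in 14 of 23 gray matter OPCs and in 3 of 28, 3 of 8 and 2 of 20 white matter OPCs. Its log2 fold change was -3.26 ± 0.44 (adjusted p = 6.84e-10, edgeR) and its adjusted p 2.72e-07 without the mixed barcodes. With library 2 in the fit and library 1 or library 3 out, Adm changed by -2.35 and -2.31 on the log2 scale (adjusted p = 0.0871 and 0.995, edgeR). Oligodendrocytes had at most 0.0536 CPM of Adm in any of these libraries. Vegfa, the vascular endothelial growth factor, had 651 CPM in gray matter OPCs and 227, 248 and 106 in white matter (log2 -1.88 ± 0.34, adjusted p = 1.23e-05, and 0.00391 without the mixed barcodes, edgeR). Hif1a, the gene of a transcription factor subunit of the low-oxygen response, was just called (log2 -1.28 ± 0.36, adjusted p = 0.0343, and 0.0659 without the mixed barcodes, edgeR). Whether low oxygen had a part in these levels was not tested. Vegfa and Hif1a, and Npy and Gap43 below, were chosen after their values were seen.

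Ednrb, the endothelin B receptor and a gene of the OPC identity list, had 1052 CPM in gray and 414, 844 and 333 in white matter OPCs of Rag1-/- mice (log2 -1.42 ± 0.31, adjusted p = 0.000768, edgeR). It was the only one of the 35 OPC identity genes that was called, and its call was lost when white matter library 2 joined the fit (adjusted p = 0.268). Ednrb changed by -1.27 without the mixed barcodes (adjusted p = 0.0429), and by -0.85 and -0.75 with library 2 in and library 1 or 3 out (adjusted p = 0.780 and 0.995, edgeR). The median of that list was -0.20. The neuropeptide Npy had 196 CPM in gray and 29.6, 74.5 and 61.1 in white matter (log2 -2.05 ± 0.48, adjusted p = 0.00302, and 0.0212 without the mixed barcodes, edgeR).

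Among the genes higher in white matter, Gap43, a growth cone protein (chromosome 16, 42248442 to 42340651, minus strand), had 34.2 CPM in Rag1-/- gray matter OPCs and 395, 273 and 228 in white matter, with 239 in wild-type white matter library 2. It was found in 3 of 23 gray matter OPCs and in 19 of 28, 5 of 8 and 12 of 20 white matter OPCs. Its log2 fold change was 3.23 ± 0.52 (adjusted p = 3.65e-07, edgeR) and 4.52 without the mixed barcodes (adjusted p = 1.22e-08). With library 2 in and library 1 or 3 out, Gap43 changed by 2.87 and 3.33 (adjusted p = 0.0303 and 0.995, edgeR). The long non-coding RNA 2600014E21Rik had 49 UMIs in OPCs of white matter libraries 1 and 3 and none in gray matter, which makes it at least 8.72-fold higher (adjusted p = 2.26e-06, edgeR; 6.98e-05 without the mixed barcodes). It came from 13 of 28 and 6 of 20 OPCs of those libraries, 1 of 8 OPCs of white matter library 2 and 5 of 10 in the wild type. The homeobox gene Irx1, of the 4 positional genes tested the only one called, had 26 UMIs against 0, at least 4.63-fold more (adjusted p = 0.00965, edgeR), but 0.325 without the mixed barcodes.

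C4b, a complement gene of the list of age-related oligodendrocytes, had 19.6 CPM in Rag1-/- gray matter OPCs, 138, 211 and 245 in white matter and 486 in wild-type white matter library 2. Its log2 fold change was 3.30 ± 0.62 (adjusted p = 3.64e-05, edgeR; 0.0232 without the mixed barcodes). Oligodendrocytes of the same libraries had 29.3 CPM in gray and 605, 689 and 917 in white matter of Rag1-/- mice and 1545 in the wild type. The tissue difference of C4b did not differ between the cell types beyond the error (log2 -1.37 ± 0.78, adjusted p = 0.855). C4b reads can be shared with the near-identical C4a. It was the only gene called among 6 of its list.

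**Figure D5:**
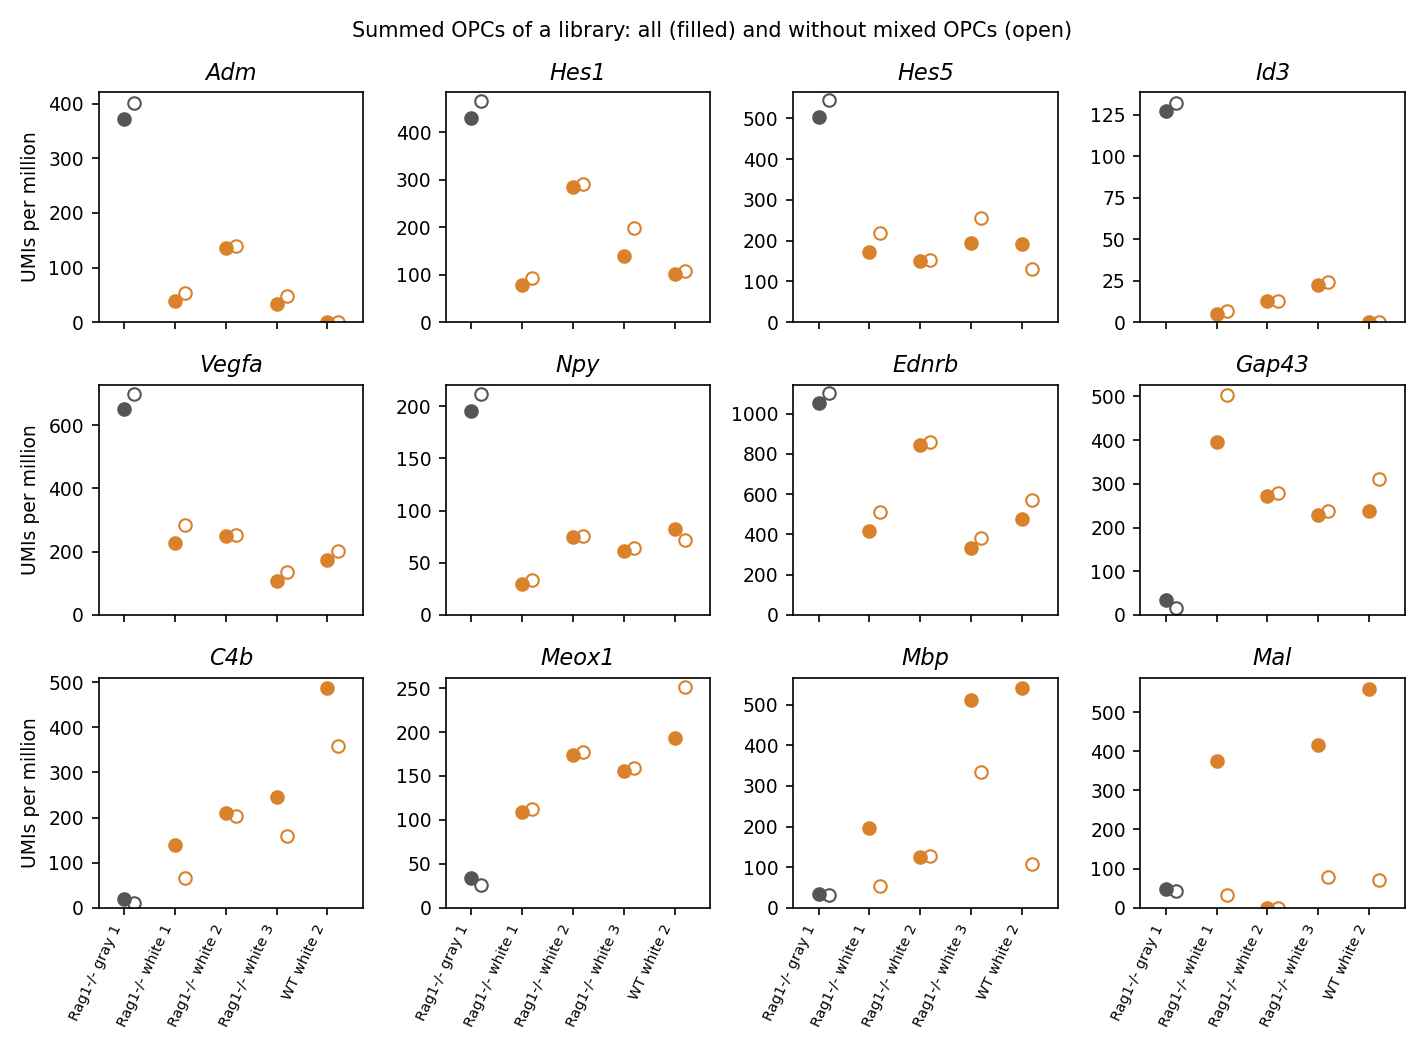
Levels of 12 genes in OPC sums, in CPM, in Rag1-/- gray matter, Rag1-/- white matter libraries 1 to 3 and wild-type white matter library 2; filled points use all OPCs and open points leave out mixed barcodes. Adm, Hes1, Hes5, Id3, Vegfa, Npy and Ednrb stand highest in gray matter, for Adm 372 against at most 137, and Gap43 and C4b stand lowest there.

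Further calls fell on genes of myelin and of blood. Of 28 tested myelin genes 19 were higher in white matter OPCs, with a median log2 fold change of 2.16 (1.97 with genes at 0 in gray matter set to their bound), where 0.914% of all genes were higher. With library 2 in the fit 7 of 28 were higher (0.255% of all genes). Without the mixed barcodes, which had been picked by Mal of this list and the C1q genes, 2 of the 17 still tested were (0.287% of all genes). Mbp had 34.2 CPM in gray and 197, 124 and 511 in white matter OPCs, with a log2 fold change of 3.4 (adjusted p = 5.02e-08, edgeR) and an adjusted p of 0.0118 without the mixed barcodes. Ptgds, a prostaglandin synthase, had a log2 fold change of -1.02 without them, the opposite sign. All 4 tested globin genes were lower in white matter (0.582% of all genes), with Hbb-bs 24.8-fold (12.1 to 59.0, counting interval) and UMIs of it in 22 of 23 gray matter OPCs. Hbb-bs was at 361 CPM in oligodendrocytes of that library too. Reads of the globin genes may be shared between near-identical copies. Of 81 ribosomal protein genes 11 were called, all higher in white matter OPCs (0.914% of all genes). The log2 fold change was above 0 in 80 of the 81, and the median of all genes was 0.02. Of the 81, 2 were called higher without the mixed barcodes (0.287% of all genes), and with library 2 in the fit or with DESeq2 none. What part RNA of other cells had in the genes above was not tested. The cell cycle calls Mki67, Cenpf and Cenpa came from white matter libraries 1 and 3, Mki67 and Cenpf from 1 OPC each and Cenpa with 16 of 17 and 5 of 5 UMIs in 1 OPC, with at least 3.38-, 7.66- and 3.92-fold more UMIs than none in gray matter.

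Beside these, no tested gene was called among 10 glutamate receptor, 7 GABA receptor, 19 ion channel, 10 growth factor receptor, 13 cell cycle brake, 18 sterol synthesis, 6 type I interferon and 11 MHC class I genes (edgeR). The brake list also holds Ccnd1 and Cdk4, which are no brakes, and the ion channel list holds the non-coding Kcnq1ot1. In all, 577 of the 6016 genes had an unadjusted p under 0.05. Gpr17 had a log2 fold change of -0.49 (adjusted p = 0.736). Of 20 committed precursor genes Nkx6-2 was called, which lost the call without the mixed barcodes (adjusted p = 0.819), and of 26 matrix genes Sparc was higher (log2 1.66 ± 0.38, adjusted p = 0.00184) and Smoc1 lower (-1.86 ± 0.55, adjusted p = 0.0493), neither called without the mixed barcodes.

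Within white matter, OPCs of Rag1-/- mice (libraries 1 and 3) were set against those of wild-type library 2. None of the 35 OPC identity genes was called (median log2 fold change -0.12, against 0.03 for all genes), and Gpr17 differed by -0.17 ± 0.41 (adjusted p = 0.949). Of all 6016 genes 75 (1.25%) were called, 51 higher (0.848%) and 24 lower (0.399%) in Rag1-/- mice, and 480 had an unadjusted p under 0.05. Without the mixed barcodes 10 of 4529 (0.221%) remained, all higher in Rag1-/- mice, and DESeq2 called 14 (0.233%). Within cells under 20000 UMIs 54 were called, 48 higher and 6 lower. With white matter library 2 in the fit, 49 genes were called (0.834%), or 13 without the mixed barcodes (0.292%). Of all OPCs with library 2 in, 13 genes were called without library 1 and none without library 3 (171 with an unadjusted p under 0.05, edgeR).

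Several of the calls were also seen in oligodendrocytes. Atp6v0c, a proton pump subunit, had no UMI in wild-type OPCs and 789 and 728 CPM in Rag1-/- white matter, at least 27.6-fold more (adjusted p = 2.1e-16, and 3.73e-12 without the mixed barcodes, edgeR). In oligodendrocytes it had 2.51 CPM in the wild type and 518 to 549 in Rag1-/- libraries. Rnasek, Nme2 and Gng10 were likewise at 0 in wild-type OPCs and at least 12.2-, 10.8- and 8.07-fold higher. In the other direction the phosphatase gene Ptp4a1 had 24 UMIs in OPCs of the wild type, from all 10 of them, and none in Rag1-/- white matter, at least 28.1-fold less (adjusted p = 1.36e-07, edgeR), and oligodendrocytes had 471 CPM against at most 2.58. Of the 51 higher genes 17, and of the 24 lower genes 2, were also over 2-fold higher or lower in the oligodendrocytes of both Rag1-/- white matter libraries, where 0.598% and 0.0499% of all 6016 genes were. Genotype and counting software cannot be told apart for these.

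Microglial genes made up a further group of calls. All 12 genes of the microglia list were higher in Rag1-/- OPCs, where 0.848% of all genes were (median log2 fold change 5.18, or 4.54 with genes at 0 in the wild type set to their bound), 5 of 12 with DESeq2 and 0 of 3 tested without the mixed barcodes. Tyrobp, Cx3cr1, Ly86 and Selplg had no UMI in wild-type OPCs, which makes them at least 11.4-, 11.9-, 6.45- and 6.17-fold higher. In the other direction, 10 of 28 myelin genes were lower in Rag1-/- mice (0.399% of all genes) and none of the 17 still tested without the mixed barcodes, of which the wild-type barcode with 55 Mal UMIs is one. With all mixed barcodes out, the median log2 fold change of the list was 0.28. Within cells under 20000 UMIs, which leaves that barcode alone out of this comparison, the median turned over, from -0.84 to 1.97. That limit keeps Rag1-/- barcodes with 32 and 37 UMIs of Mal in library 1 and 25 and 38 in library 3, so only the wild type lost a barcode. There the log2 fold changes of Apod and Trf were 3.03 and 2.86 (edgeR, adjusted p = 0.00139 and 1.41e-05), and those of Cldn11, Ermn, Mobp and Mog 2.18, 1.52, 1.97 and 1.17, without a call. C4b was lower in Rag1-/- OPCs (log2 -1.28 ± 0.37, adjusted p = 0.0479, edgeR), with 0.124 without the mixed barcodes. B2m had a log2 fold change of 0.58 ± 0.39 in all and -0.76 in unmixed OPCs (adjusted p = 0.789 and 0.886), and none of the 11 MHC class I and 6 type I interferon genes tested was called (edgeR).

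Finally, the tissue and genotype differences of OPCs were tested against those of oligodendrocytes of the same libraries. For tissue, 104 of 12939 genes (0.804%) differed, 79 upwards (0.611%) and 25 downwards (0.193%) in OPCs relative to oligodendrocytes. Without the mixed barcodes 32 of 12639 (0.253%) did, with DESeq2 10 (0.0773%), and with white matter library 2 in the fit 36 (0.275%), or 28 without the mixed barcodes (0.219%). Besides Id3, the AMPA receptor gene Gria2 differed by 1.5 ± 0.31 (adjusted p = 0.000724, edgeR; 0.00231 without the mixed barcodes), but not with DESeq2 (adjusted p = 0.159) nor with library 2 in and library 1 or 3 out (adjusted p = 0.713 and 0.11, edgeR). Gria2 had 1160 CPM in gray and 775 and 750 in white matter OPCs of the fit, and 14.9 against 2.47 and 4.89 CPM in oligodendrocytes, so that the relative drop was steeper in oligodendrocytes. The same held for Gpr37l1, with 900 against 789 and 711 CPM in OPCs and 9.84 against 1.34 and 5.75 in oligodendrocytes. Oligodendrocyte levels of Gria2 and Gpr37l1 were low. The OPC and astrocyte gene Gpr37l1 differed by 1.40 ± 0.34 (adjusted p = 0.00767, edgeR), with 0.426 in DESeq2 and 1 and 0.0149 with library 2 in and library 1 or 3 out. For genotype, 51 of 12939 genes (0.394%) differed, 21 upwards (0.162%) and 30 downwards (0.232%). Within cells under 20000 UMIs the directions turned over, with 31 upwards and 11 downwards of 42. Without the mixed barcodes 7 of 12639 (0.0554%) did, with DESeq2 10 (0.0773%), and with library 2 in the fit 34 (0.26%), or 8 without the mixed barcodes (0.0625%). Bcan (log2 -2.02 ± 0.41, adjusted p = 0.000505) and Sparcl1 (-1.43 ± 0.30, adjusted p = 0.000848) were among them (edgeR). Both calls were kept without the mixed barcodes and with library 2 in and library 1 out, but lost with DESeq2 (adjusted p = 0.999 for both) and with library 2 in and library 3 out (adjusted p = 1 for both, edgeR). Bcan had 789 CPM in wild-type OPCs and 592 and 617 in Rag1-/- white matter libraries 1 and 3, and 0.730 against 0.508 and 5.28 in oligodendrocytes. Sparcl1 had 1129 against 903 and 967 CPM in OPCs, and 5.68 against 7.15 and 24.3 in oligodendrocytes. For both genes the oligodendrocyte levels were low and, among these white matter libraries, highest in library 3.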

How the data were processed

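UMI counts per gene and cell, made by the authors with Cell Ranger (per the labels version 4, mm10; the methods give different versions for the experiments) and deposited as whole numbers without normalization, were read from 2 tables of all cell types. The authors had filtered cells on genes, UMIs and mitochondrial RNA with limits that differed between experiments, and had left out a minor group of Rag1-/- cells rich in microglial genes. The authors' table of oligodendrocytes gave 15604 names, of which 15382 were in the tables. Samples were grouped by their labels. Each library was 1 replicate, and nothing says that pools were independent beyond the experiments named. P-values of the share tests measure the spread between these libraries. In the edgeR fits of 4 libraries, only Rag1-/- white matter had more than 1 library to measure a spread from. The prior degrees of freedom were infinite, so these p-values rest on a spread shared over genes and not on that of each gene.

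OPCs and oligodendrocytes were summed per library over the 16999 genes listed for both genotypes (Gm42418 and AY036118, which the authors removed in part, were left out). Libraries with at least 10 OPCs (4, with 108961 to 204392 UMIs in OPCs) were compared with edgeR 4.0.16 (R 4.3.3) in 1 model of 3 groups. Low genes were dropped with filterByExpr, scaling was by TMM, the quasi-likelihood F test was two-sided, and p-values were adjusted by Benjamini-Hochberg over all genes tested and called at 0.05. SEs were derived from the log2 fold change and F (its size over the root of F). The lone libraries of a group are taken to vary like the others. The difference between cell types was fitted with the library as a block. White against gray matter in the wild type, and the mean over both genotypes, which had been planned, could not be fitted since wild-type gray matter held 2 OPCs. Log2 ratios of OPC to oligodendrocyte add 10 CPM. Genes at 0 UMIs in a group were given a bound from a floor of 3 counts over the group. Folds taken from counts above 0 carry exact counting intervals at 95%, and log2 fold changes of the fits do not. Shares were compared by exact permutation tests over libraries in scipy 1.17.1. DESeq2 1.42.0, other filters, limits and libraries were alternatives.

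The OPC rule, the gene lists and the tests were chosen with earlier results of these data known. Named were the 20 genes furthest on the OPC side and the 10 furthest on the oligodendrocyte side by their lowest library, the 3 highest genes and every called gene of each list, and the 8 largest and 8 smallest called changes of each comparison. Fth1, Trf, Isg15, Gabrb1, Kcnd2, Cdkn1a, Cdkn2a, Hif1a, Nrarp, Vegfa, Npy and Gap43 and the genes given to describe lists were chosen after their values were seen. Some genes that these rules name are not reported here. Positions are those of GENCODE on GRCm38.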

Additional observations from a re-analysis of the deposited data

Results flagged for a closer look

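Results are listed here where the tissue or the genotype difference of OPCs differed from that of oligodendrocytes in the test of the difference itself (edgeR, adjusted p at most 0.05) and the gene was also called in OPCs alone. Values are the log2 fold change in OPCs minus that in oligodendrocytes. They carry no intervals, and those that rest on a few UMIs are uncertain.

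For white against gray matter in Rag1-/- mice, 104 genes differed. Among the named ones the myelin and mature oligodendrocyte genes were Apod with 2.79, Car2 with 2.28, Cldn11 with 2.76, Cnp with 1.59, Ermn with 5.07, Evi2a with 2.80, Il33 with 2.90, Mag with 1.85, Mal with 2.92, Mbp with 3.02, Mobp with 2.49, Mog with 3.84, Ppp1r14a with 2.71, Ptgds with 2.82, Qdpr with 2.07, Sept4 with 1.84 and Trf with 2.56. Nkx6-2, a transcription factor of the lineage, differed by 3.10. In gray matter OPCs Ermn and Mog had 1 UMI, Nkx6-2 had 2, and Apod, Il33 and Ppp1r14a had 3. No gene of the myelin list differed without the mixed barcodes. Opalin and Slc38a1 had no UMI in gray matter OPCs and differed with adjusted p of 0.00098 and 0.000724. The genes with the opposite sign were Id3 with -4.68, Pstpip2 with -3.31 and Sclt1 with -3.17.

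For Rag1-/- against wild-type white matter, 51 genes differed. The microglial genes were C1qa with 2.92, C1qb with 3.43, C1qc with 3.56 and Ctss with 3.59, and Tyrobp, which had no UMI in wild-type OPCs, differed with an adjusted p of 0.00979. In wild-type OPCs C1qa and C1qb had 3 UMIs, and C1qc and Ctss had 2. None of the microglia list differed without the mixed barcodes. Myelin genes differed by -2.47 for Anln, -2.15 for Apod, -1.30 for Cldn11, -1.37 for Ermn, -5.22 for Gjb1, -4.55 for Klk6, -1.79 for Mobp, -1.65 for Mog and -1.78 for Trf, and by 2.83 for Ptgds. Further genes were Hopx with -4.75, Iqsec1 with -2.70 and Sparc with 1.92. The UMIs of Hopx, Klk6 and Gjb1 in wild-type OPCs came almost all from 1 barcode. In OPCs of Rag1-/- white matter libraries 1 and 3, Hopx had 3 UMIs, and Klk6 and Gjb1 had 2. A limit of 20000 UMIs leaves out 1 wild-type barcode and keeps the Rag1-/- barcodes rich in Mal. Under it the genotype changes in OPCs turned from negative to positive in Apod, Cldn11, Ermn, Mobp, Mog and Trf. No gene of the myelin list differed between the cell types without the mixed barcodes.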

How the results depend on the processing

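The OPC share in white minus gray matter was -0.261 when counted per oligodendrocyte, opposite in sign to the value over all cells, and ranged from -0.0871 to 0.215 when 1 library was left out. The pairs of one pool as a replicate block gave 0.0183 (exact permutation test, p = 1). For Rag1-/- against wild-type white matter it ranged from 0.0889 to 0.136, for Gpr17 from -18.6 to 7.17 and for the cell cycle list from -11.8 to -4.32 percentage points; thinned to 1000 UMIs these were -19.3 and -2.39. Genes called for tissue were 3 with DESeq2, 28 with libraries of at least 8 OPCs, 26 without the mixed barcodes and 28 without them with 7 OPCs or more. Leaving out wild-type white matter library 2 gave 87. From the fit with at least 8 OPCs per library, which gave 28, they became 4 and 0 without Rag1-/- white matter library 1 or 3, and leaving out library 2 gives back the 90 of the report. Genes called for genotype were 14, 49, 10 and 13 in the same order, 71 without the gray matter library, and 13 and 0 without library 1 or 3 in place of the 49, or again the 75 of the report without library 2. Differences between cell types were 10, 36, 32 and 28 for tissue (106 without the wild-type library, and 2 and 14 without library 1 or 3 in place of the 36) and 10, 34, 7 and 8 for genotype (46 without the gray matter library, and 30 and 6 in place of the 34, or the 51 of the report without library 2). Within cells under 20000 UMIs, 188 genes were at least 4-fold higher in oligodendrocytes in place of 124. The limits of 8 and 7 OPCs and the mixed barcodes were chosen after seeing the data. Signs changed without the mixed barcodes for tissue in Ptgds (-1.02, also with 7 OPCs or more), and with 7 OPCs or more in Mal (-0.033) and Sept4 (-0.0016). For genotype they changed to 3.03, 1.79 and 1.69 in Apod and 2.86, 1.06 and 1.11 in Trf (under 20000 UMIs, without mixed barcodes, the same with 7 OPCs or more), and under 20000 UMIs in Cldn11 (2.18), Ermn (1.52), Mobp (1.97) and Mog (1.17). In that comparison the limit of 20000 UMIs leaves out 1 wild-type barcode and no other OPC. For the other changes of sign the cause was not tested. No gene fit with paired libraries could be made, since 1 pool had 10 or more OPCs in both tissues, and leaving out Rag1-/- white matter library 1 or 3 from the fit of 4 libraries left no residual degrees of freedom. With 8 to 28 OPCs per library, genes under a few UMIs per library could not be compared.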
